A study of Homo sapiens with 15 samples.

Results

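The cytosolic ribosomal protein genes encode the proteins of the small (RPS) and large (RPL) ribosomal subunit. They were followed in A549 cells, a human lung adenocarcinoma epithelial line that the labels call bronchial, with and without interleukin-13 (IL-13), the cytokine of allergic airway inflammation. The study carries the title of airway hyperresponsiveness and measured total RNA on 15 Affymetrix human expression arrays. The groups hold 3 arrays each: A549 cells harvested 4 h, 12 h or 24 h after IL-13, untreated A549 cells at 24 h, and untreated A549 cells at 0 h. The labels give no IL-13 dose and no genetic change, and untreated cells were labelled at 0 h and 24 h alone. IL-13 and time in culture therefore cannot be told apart in the comparisons with 0 h. Members were the probe sets whose only gene symbol is RPL or RPS with a number, RPLP0, RPLP1, RPLP2 or RPSA, leaving out S6 kinases and pseudogenes. By this rule 58 of 11963 genes were members, 36 of the large and 22 of the small subunit, measured by 96 of 22283 probe sets. The rule itself uses gene symbols alone, but it was chosen with earlier results of these data known.

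Each cytosolic ribosome holds 1 copy of nearly every one of these proteins, and cells make the proteins in matched amounts. Much of this matching happens during translation. Most of the mRNAs begin with a C followed by a run of pyrimidines, the 5′ terminal oligopyrimidine (TOP) start. Through it, the mTORC1 kinase and the RNA-binding protein LARP1 switch the translation of all of them together, often with little change in mRNA amount. An array measures the mRNA and not its translation.

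Starts of genes the results turn on are shown because the TOP start is the sequence feature that joins this family. RPL30 is not among them, since no RefSeq start window was matched for it. Each sequence is RefSeq sequence of build GRCh38.p14 on the gene's own strand, 15 bases before the annotated start and 15 from it. Capitals mark the pyrimidine run from the start, and a sequence with no capitals holds no such run there.
RPS10, chr6:34426055-34426084, minus strand: ccgcgcatgctccttCCTTTCCagccccgg
RPS9, chr19:54200843-54200872, plus strand: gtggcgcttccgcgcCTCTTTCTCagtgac
RPL27A, chr11:8682777-8682806, plus strand: ttggcgaaggccttcCTTTTTCgtctgggc
RPL38, chr17:74203663-74203692, plus strand: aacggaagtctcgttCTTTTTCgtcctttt
RPL11, chr1:23691791-23691820, plus strand: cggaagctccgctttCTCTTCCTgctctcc
RPS6, chr9:19380222-19380251, minus strand: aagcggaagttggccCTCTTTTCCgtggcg
RPLP1, chr15:69452803-69452832, plus strand: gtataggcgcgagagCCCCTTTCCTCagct
A pair of related genes, the first with the run and the second without, follows for contrast.
RPS27, chr1:153990747-153990776, plus strand: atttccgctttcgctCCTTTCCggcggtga
RPS27L, chr15:63157463-63157492, minus strand: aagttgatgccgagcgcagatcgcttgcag

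The search was for C at an annotated start followed by at least 4 further bases that are C or T, on the gene's own strand only. RefSeq start windows were matched for 50 of the 58 members, and 34 of these (68%) held it. Over all 27305 genes with a window the share was 5.14%. In the 34 members the run was 5 to 19 bases long, with a median of 8. The 16 matched members without it were RPL3, RPL6, RPL9, RPL10A, RPL10L, RPL19, RPL26L1, RPL27, RPL32, RPL36AL, RPS4X, RPS7, RPS15, RPS27L, RPS28 and RPS29. A match describes the annotated letters and is not a measured start, and no match says only that these letters are not at that annotated position. The members lie on 20 chromosomes, with at most 7 on any 1 of them.

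The values are signal intensities per probe set on a linear scale. The differences below are log2 differences after quantile normalization, each ± SE with 3 arrays per group, and adjusted p-values come from limma over all 6884 genes tested. Whether replicates came from separate cultures is not stated, so the p-values reflect array-to-array spread that may be technical. Array medians lay between 56.7 and 72.4. Over the genes tested the correlation was 0.970 to 0.982 between arrays of a group and 0.941 to 0.979 between arrays of different groups. The 3′/5′ ratio of beta-actin on the arrays, which grows as RNA is degraded, was 0.930 to 1.06 at 0 h, 0.956 to 1.11 after 4 h of IL-13 and 1.04 to 1.13 after 12 h. It was 1.09 to 1.23 after 24 h of IL-13, against 1.11 to 1.24 in control cells at 24 h, and its part in the results was not tested. The same ratio of GAPDH was 0.844 to 0.918 over all arrays, with means of 0.869 after 24 h of IL-13, 0.896 in control cells at 24 h and 0.881 at 0 h. Of the epithelial markers KRT8, KRT18, KRT19, EPCAM and CDH1, 4 of 5 were above the expression filter and EPCAM was below it, and the summed signal of all 5 was 14100 to 19100 on every array. The corresponding sums were 66.9 to 153 for 3 leukocyte markers, 138 to 317 for 6 fibroblast markers and 85.8 to 153 for 5 endothelial markers. At 24 h of IL-13 against control 24 h the epithelial marker KRT8 was higher by 0.40 (limma adjusted p = 0.0038) and the fibroblast marker COL1A1 was lower by -0.78 (limma adjusted p = 0.00495), and their part in the results was not tested.

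The ribosomal protein genes were among the brightest on the arrays. Their probe sets make up 0.432% of all that are not array controls, yet they were 19 of the 100 brightest. A further 14 of these 100 carry a ribosomal protein symbol beside other symbols, and were left out by the rule. The member probe sets together held 7.56 ± 0.353% of the summed array signal at 0 h. With IL-13 the share was 7.75 ± 0.266% at 4 h, 7.83 ± 0.0835% at 12 h and 7.48 ± 0.298% at 24 h. In control cells at 24 h the share was 7.46 ± 0.386% (mean ± SD, n = 3 arrays per group). The range of every group overlapped that of every other group. In bulk RNA, fewer cells of a type and less RNA per cell cannot be told apart.

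**Figure D1:**
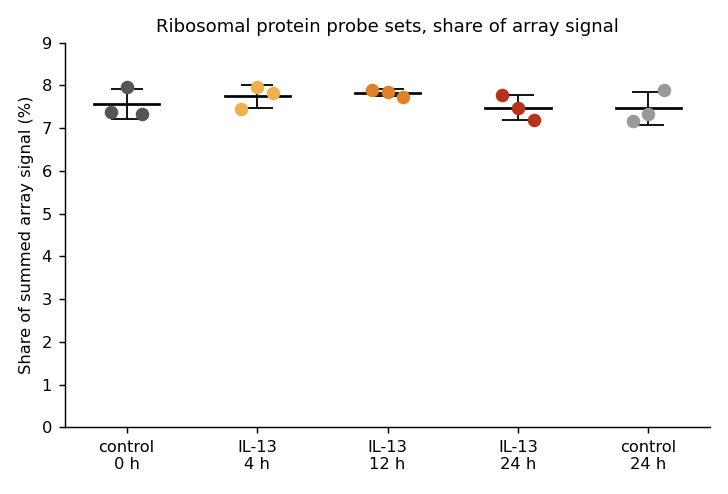
Share of the summed array signal held by the 96 ribosomal protein probe sets, in percent, in the 5 groups in time order with control 24 h beside IL-13 24 h. Points are arrays, bars the group mean and whiskers ± 1 SD (n = 3); group means lie between 7.46% and 7.83% and all groups overlap.

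The main question was what 24 h of IL-13 did to these mRNAs against untreated cells of the same time. Of 58 members 56 passed the filter on low signal and were tested. RPS10, a small subunit protein, and RPL30, a large subunit protein, were higher with IL-13, and no member was lower. Called members were thus 2 of 56, while 7.00% of all genes tested were called, 3.94% higher and 3.07% lower. At an unadjusted p under 0.05, 7 members were higher and 1 lower, which is 14.3% of members against 23.8% of all genes. The 56 differences lay between -0.45 and 0.29 with a median of 0.059, beside a median of 0.0016 over all genes tested, and 41 of them were above 0. As deposited 31 were above 0, with arrays scaled to the median of their tested genes 38, and with arrays scaled to their own median 54. The quartiles of the members were -0.0017 and 0.13, and those of all genes -0.17 and 0.18. The median was 0.079 for the 34 large subunit genes and 0.042 for the 22 small subunit genes.

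RPS10 signals were 11060, 10110 and 9367 after 24 h of IL-13, against 8732, 9145 and 10210 in control cells at 24 h. The groups overlapped on this deposited scale, through 1 control array above 2 of the IL-13 arrays. After quantile normalization the log2 levels were 13.41, 13.47 and 13.48 with IL-13, against 13.10, 13.23 and 13.16 in control cells, and no longer overlapped. The difference was 0.29 ± 0.06, or 1.22-fold, with a limma adjusted p of 0.00594. Without the quantile step it was 0.12, with a limma adjusted p of 0.362. All 4 probe sets of RPS10 are of the kind that can bind other transcripts (_x_at): the others gave 0.20 (called, limma adjusted p = 0.0406), 0.16 and -0.0019, the last of them a dim set.

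RPL30 signals were 8418, 7537 and 7437 after 24 h of IL-13, against 7021, 6777 and 7782 in control cells at 24 h, and overlapped as deposited. The normalized log2 levels were 13.06, 13.04 and 13.11 with IL-13, against 12.83, 12.77 and 12.83 in control cells, and did not overlap. RPL30 was higher by 0.26 ± 0.05, or 1.20-fold (limma adjusted p = 0.00796). Without the quantile step the difference was 0.12 (limma adjusted p = 0.36). RPL30 has 1 probe set under its symbol alone. Scaling each array to the median of its tested genes gave 0.17 for either gene, with limma adjusted p-values of 0.216 for RPS10 and 0.206 for RPL30. Both calls were thus lost under these scalings, and both passed when each array was scaled to its own median. With tested-gene median scaling the 2 members called were RPL10A and RPL36AL instead, both higher, while 6.38% of all genes were called higher.

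The next smallest p-values belonged to RPL38 on the low side and to RPL10A, RPL11, RPL35, RPL36AL and RPL29 on the high side, and none passed. RPL11, which with RPL5 and 5S rRNA can bind MDM2 and so stabilise p53, had signals of 3536, 3490 and 3622 with IL-13, against 2466, 3043 and 3185 in control cells at 24 h. The IL-13 arrays were all above the control arrays, and the difference was 0.25 ± 0.11 (limma adjusted p = 0.158). RPL10A signals were 3039, 3104 and 2948 with IL-13, against 2340, 2595 and 2727 in control cells, also without overlap. The RPL10A difference was 0.21 ± 0.07 (limma adjusted p = 0.0985). RPL35, RPL36AL and RPL29 had differences of 0.15, 0.22 and 0.18, with limma adjusted p-values of 0.159 to 0.174. RPL36AL passed without the second control array of 24 h (replicate b), at 0.33 (limma adjusted p = 0.0403), and was at 0.11 without the first (limma adjusted p = 0.522). Normalized groups did not overlap for 9 members, 8 higher and 1 lower, while this held for 26.2% of all genes tested, 14.2% higher and 12.1% lower.

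RPL38, whose loss in mice disturbs the translation of Hox mRNAs, had the lowest difference of all members. Its signals were 1050, 852.7 and 818.5 with IL-13, against 1143, 986.1 and 1268 in control cells at 24 h. The groups overlapped as deposited, through the first IL-13 array. The difference was -0.45 ± 0.14, short of the threshold (limma adjusted p = 0.0629). Without the second control array it was -0.56 (limma adjusted p = 0.0319). With array median scaling it was -0.089 (limma adjusted p = 0.714), and with tested-gene median scaling -0.26 (limma adjusted p = 0.231). Another probe set for RPL38 gave -0.55, while the brightest set gave -0.094, so its probe sets disagree. The last of these was not the one used for the gene because it is of the _x_at kind.

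The median SE of the members in this comparison was 0.078, against 0.14 over all genes tested. For 54 of the 56 members, or 96.4%, the 95% interval of the 24 h difference lay within 1.5-fold in either direction, which held for 70.0% of all genes. For all 56 it lay within 2-fold. The exceptions at 1.5-fold were RPL38 and RPLP2, and RPLP2 rests on a dim probe set. All intervals given here and below rest on the quantile scale, and those under other scalings are not given. As deposited, the SE of RPL30 was 0.080 in place of 0.054, and that of RPS10 was 0.082 in place of 0.057.

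**Figure D2:**
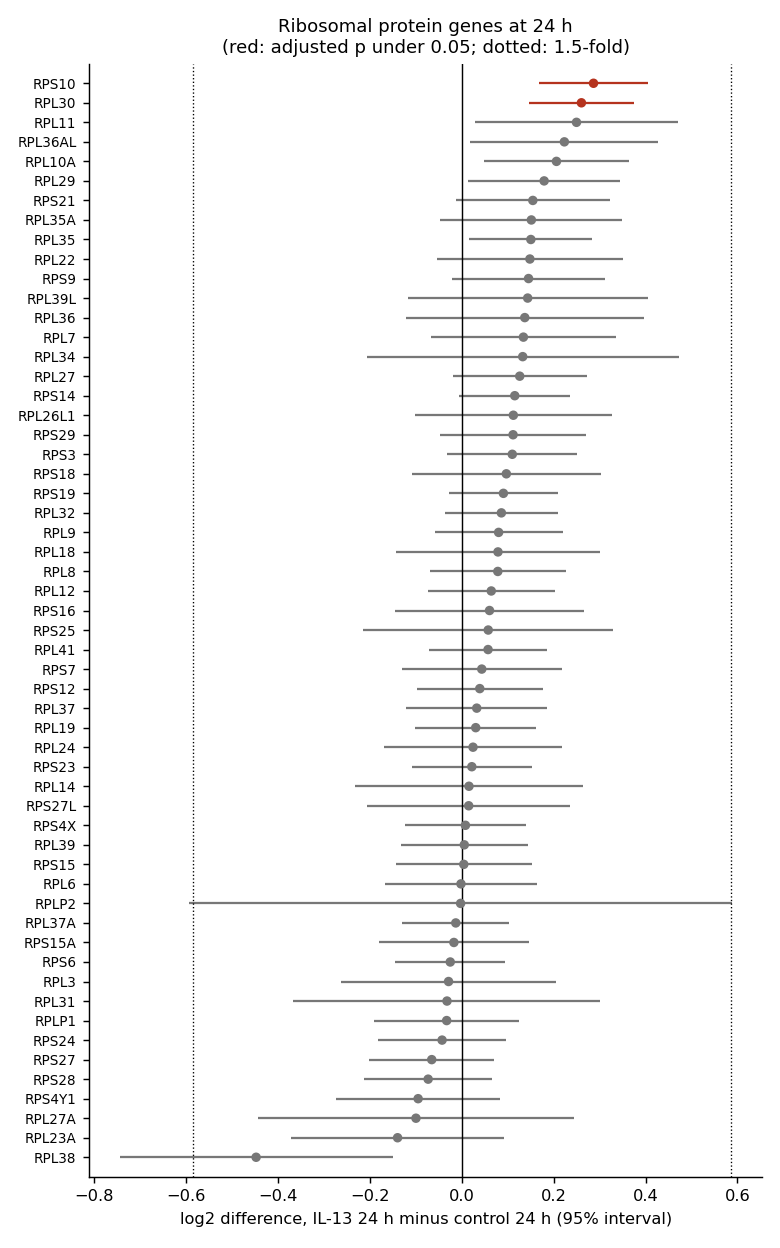
Log2 difference, IL-13 24 h minus control 24 h, of the 56 tested ribosomal protein genes (points) with 95% intervals (lines), 3 arrays per group. RPS10 and RPL30 (red) passed an adjusted p of 0.05; dotted lines mark 1.5-fold, and only the intervals of RPL38 and RPLP2 cross them.

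Several members have functions that make them of separate interest. RPS6 is the protein phosphorylated by S6 kinase downstream of mTORC1. Its signals were 7410, 6813 and 6618 after 24 h of IL-13, against 7263, 7244 and 8242 in control cells at 24 h, and the groups overlapped. Its difference was -0.025 ± 0.06 (limma adjusted p = 0.83, 95% interval -0.14 to 0.09). RPLP1, an acidic protein of the ribosomal stalk that recruits elongation factors, had signals of 8533, 7393 and 6875 with IL-13, against 8725, 7987 and 9425 in control cells. Its difference was -0.033 ± 0.08 (limma adjusted p = 0.831), and the groups overlapped. RPLP2, its partner in the stalk, was measured by a dim probe set with 74.46, 94.00 and 71.78 with IL-13, against 86.75, 121.6 and 71.05 in control cells. The RPLP2 interval of -0.59 to 0.59 sets only a wide limit.

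None of the tested paralogues, genes that encode a second form of a ribosomal protein, was called at 24 h. RPS27L, a p53 target in human cells, had a difference of 0.015 ± 0.11, and RPS27 one of -0.065 ± 0.07. RPL26L1 stood at 0.11 ± 0.10 and RPL39L at 0.14 ± 0.12, beside 0.0057 for RPL39. RPS4Y1 and RPS4X, the Y-linked and X-linked forms of one protein, had differences of -0.095 and 0.0082. RPL36AL, given above, had 0.22 ± 0.10. The limma adjusted p was 0.17 for RPL36AL and between 0.514 and 0.969 for the others. RPL3L, the form of striated muscle, and RPL10L, the form of testis, did not pass the filter. Their signals over all 15 arrays ran from 6.2 to 59.3 and from 9.1 to 68.1. With the filter dropped, RPL3L differed by 0.72 ± 0.35 and RPL10L by 0.43 ± 0.39 (limma adjusted p = 0.323 and 0.644). RPL22L1, RPL10, RPL26, RPL36A, RPLP0, RPL5, RPSA and RPS27A have no probe set under their symbol alone and are not reported.

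Control cells at 24 h were also compared with control cells at 0 h, both without IL-13. These groups differ in time in culture and also in the beta-actin ratio given above, whose part was not tested. RPL27A was higher at 24 h and RPS10 was lower. This is 2 of 56 members, with 3.62% of all genes called, 1.73% higher and 1.89% lower. Differences ran from -0.26 to 0.62 with a median of -0.027, beside -0.0030 over all genes, and 23 were above 0 and 33 below. As deposited 22 were above 0, with tested-gene median scaling 13 and with array median scaling 4. Groups did not overlap for 18 members, 8 higher and 10 lower, and for 24.7% of all genes, 12.2% higher and 12.6% lower. The 95% interval lay within 1.5-fold for 53 members, all but RPL27A, RPL38 and RPLP2.

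RPL27A, a large subunit protein, had signals of 259.4, 232.2 and 306.9 in control cells at 24 h, against 147.4, 168.0 and 182.3 at 0 h. Every 24 h array was above every 0 h array. The difference was 0.62 ± 0.16, or 1.53-fold (limma adjusted p = 0.0439). Its only probe set under a single symbol had a mean signal of 234.9, far below that of most members. Whether this set follows the main RPL27A mRNA was not tested. The call was lost without any 1 of the 3 arrays of 0 h, where the difference was 0.54 to 0.67 with limma adjusted p-values of 0.0725 to 0.151. It was also lost without the first or the last array of 24 h, at 0.64 and 0.51 (limma adjusted p = 0.0858 and 0.171). RPL38 followed with 0.50 ± 0.14, from 1143, 986.1 and 1268 in control cells at 24 h against 841.2, 972.1 and 813.6 at 0 h. It did not pass (limma adjusted p = 0.0566), but did without the second array of 24 h, at 0.61 (limma adjusted p = 0.0353). With array median scaling the RPL38 difference was 0.13 (limma adjusted p = 0.579), and with tested-gene median scaling 0.31 (limma adjusted p = 0.185). The other RPL38 probe sets gave 0.54 and -0.047.

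RPS10 was lower in control cells at 24 h by -0.21 ± 0.06 (limma adjusted p = 0.0473), from 8732, 9145 and 10210 against 10310, 10800 and 10190 at 0 h. The groups overlapped as deposited, through a single pair of arrays. The call was lost without the quantile step, at -0.16 (limma adjusted p = 0.263). It was also lost without any 1 array of 0 h, at -0.25 to -0.18 (limma adjusted p = 0.0569 to 0.153), and without the first or the last array of 24 h, at -0.17 and -0.21 (limma adjusted p = 0.16 and 0.124). RPL30 had -0.18 ± 0.05 in the same comparison (limma adjusted p = 0.0674). For both genes this comparison shares the control arrays of 24 h with the IL-13 comparison above, so the comparisons are not independent. Against control 0 h, IL-13 24 h differed by 0.076 for RPS10 and 0.077 for RPL30 (limma adjusted p = 0.497 and 0.465). RPL41, RPL26L1, RPL36AL and RPL39L had -0.14, -0.22, -0.21 and -0.26 with limma adjusted p-values of 0.214 to 0.264.

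**Figure D3:**
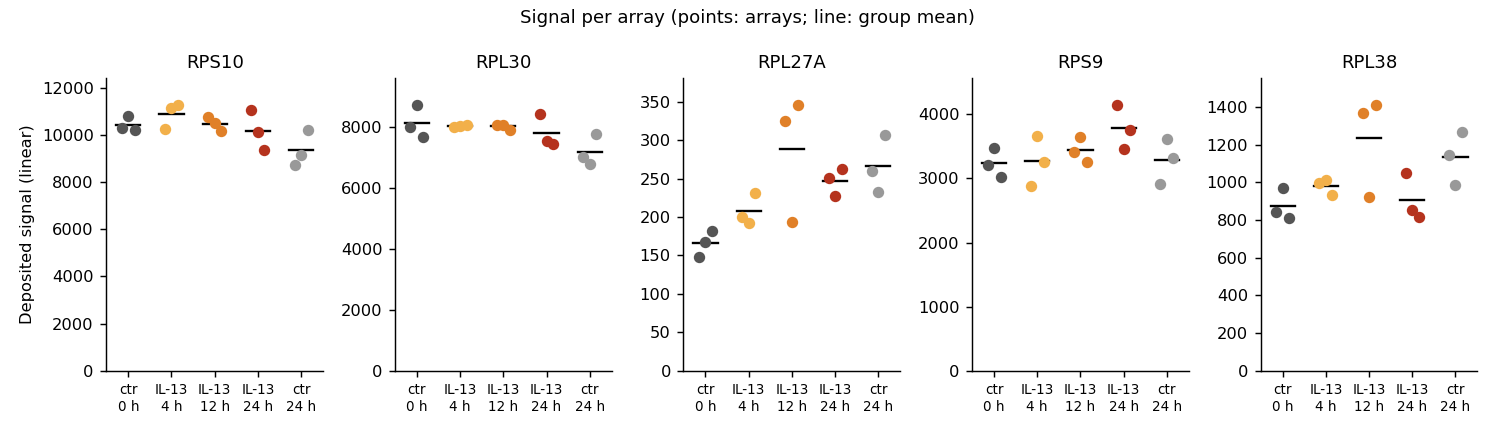
Deposited signal on a linear axis starting at 0, for RPS10, RPL30, RPL27A, RPS9 and RPL38, in the 5 groups; points are arrays and lines group means (n = 3). RPS10, RPL30 and RPS9 overlap between groups on this scale, while RPL27A at 0 h lies below every other array.

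After 4 h of IL-13 no member was called against 0 h, in limma, where 1.22% of all genes were. At an unadjusted p under 0.05, 2 members were lower and 0 higher, while 10.6% of all genes passed. These were RPS28 with -0.20 ± 0.07 and RPS23 with -0.15 ± 0.06 (limma adjusted p = 0.221 and 0.373). RPS28 signals were 4016, 4746 and 4362 after 4 h of IL-13, against 4659, 5220 and 4360 at 0 h, which overlap. RPL3, RPL27A and RPS25 had -0.22, 0.31 and 0.24, with limma adjusted p-values of 0.493 to 0.538. The median over members was 0.017, beside 0.0038 over all genes, and 54 of the 56 intervals lay within 1.5-fold.

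After 12 h of IL-13 RPL27A was the single member called against 0 h, with 4.14% of all genes called, 1.55% higher. Its signals were 325.1, 193.7 and 345.8, all above those at 0 h. The difference was 0.72 ± 0.16, or 1.64-fold (limma adjusted p = 0.0183). The second array at 12 h was far below the other two. The call was lost without the first or the last array of 12 h, at 0.62 and 0.57 (limma adjusted p = 0.0811 and 0.101), and without the first or second array of 0 h, at 0.64 and 0.74 (limma adjusted p = 0.0814 and 0.053). RPL38 showed the same uneven 12 h arrays, with 1371, 920.2 and 1411, and differed by 0.49 ± 0.14 (limma adjusted p = 0.0584). Without the second array it was 0.69 (limma adjusted p = 0.00425). The brightest RPL38 set gave -0.065 (limma adjusted p = 0.656), and the mean of its sets 0.31 (limma adjusted p = 0.153). RPS28, RPS25 and RPL18 had -0.19, 0.29 and 0.23 (limma adjusted p = 0.127 to 0.268), and the median over members was 0.021 beside 0.0071 over all genes.

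After 24 h of IL-13 RPS9, a small subunit protein, was the single member called against 0 h, with 6.87% of all genes called, 3.40% higher. Its signals were 4145, 3463 and 3749, against 3206, 3472 and 3021 at 0 h, and 1 array of 0 h lay above 1 of the IL-13 arrays. The difference was 0.31 ± 0.08, or 1.24-fold (limma adjusted p = 0.0238). The second RPS9 probe set gave 0.30 ± 0.14 (limma adjusted p = 0.212). The call was lost without the quantile step, at 0.22 (limma adjusted p = 0.217), and without the first or the last array of IL-13 or the second or the last of 0 h, at 0.27 to 0.33 (limma adjusted p = 0.0559 to 0.103). Against control cells of 24 h the RPS9 difference was 0.15 ± 0.08 (limma adjusted p = 0.275), and its second set gave -0.017. RPL27A signals were 250.2, 227.0 and 262.8 after 24 h of IL-13, again above all of 0 h, with a difference of 0.52 ± 0.16 (limma adjusted p = 0.0676). Against control cells of 24 h RPL27A differed by -0.099 ± 0.16 (limma adjusted p = 0.751). RPS3, RPL10A and RPL18 had 0.17, 0.18 and 0.25, with limma adjusted p-values of 0.155 to 0.188.

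Between consecutive times of IL-13 no member was called. For 12 h against 4 h limma called 0% of all genes, and at an unadjusted p under 0.05 it passed 4 members (7.14%) and 10.1% of all genes. The 4 were RPL22, RPL10A, RPL27A and RPL38, with 0.27, 0.18, 0.40 and 0.31. RPL22 signals were 916.8, 947.6 and 917.1 after 12 h, against 766.8, 760.6 and 816.0 after 4 h, without overlap (limma adjusted p = 0.315). For 24 h against 12 h, 6.20% of all genes were called, and 5 members were higher and 3 lower at an unadjusted p under 0.05, which 20.6% of all genes passed. RPS15 had -0.22, RPS21 0.24 and RPL38 -0.44, with limma adjusted p-values of 0.0723 to 0.0794. RPL38 passed without the second array of 12 h, at -0.63 (limma adjusted p = 0.00625), while its brightest set gave -0.077 (limma adjusted p = 0.539). RPS21 passed without the last array of 12 h, at 0.33 (limma adjusted p = 0.0245). It stood at 0.15 without the first array of 12 h, 0.13 as deposited and 0.12 with tested-gene median scaling, and the mean of its probe sets turned the sign, at -0.042 (limma adjusted p = 0.325, 0.438, 0.524 and 0.823). RPS15 passed without the second array of 24 h, at -0.27 (limma adjusted p = 0.0495), and was at -0.14 without the last (limma adjusted p = 0.298).

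**Figure D4:**
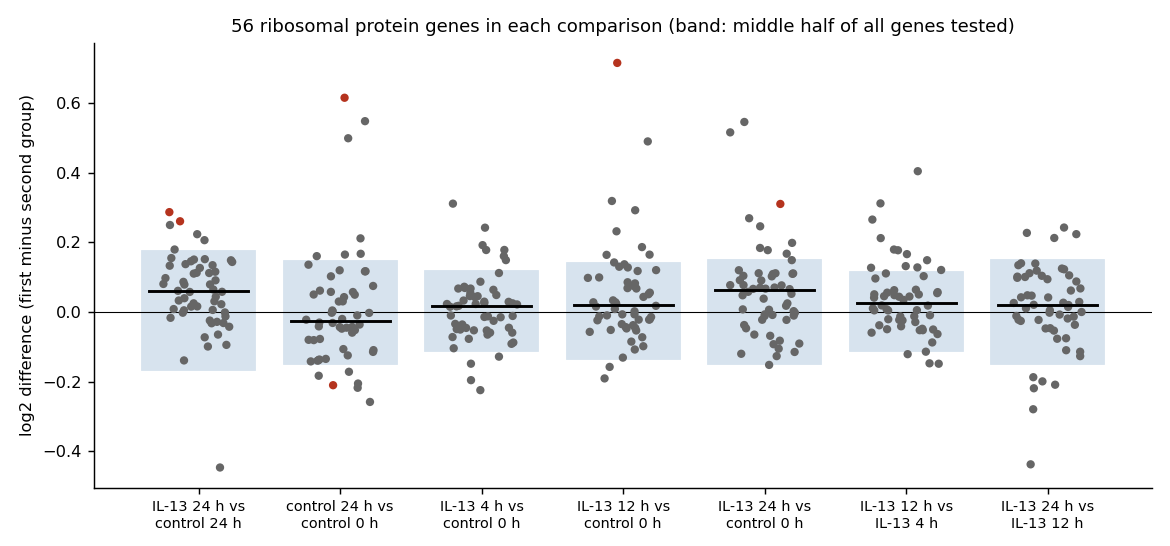
Log2 differences of the 56 ribosomal protein genes (points) in the 7 comparisons, first-named group minus second, with the members' median (line) and the interquartile range of all 6884 genes tested (band). Red points passed an adjusted p of 0.05; medians lie between -0.027 and 0.062.

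The scaling of the arrays moved the whole family together. Scaling each array to its own median took the median of all genes to 0.17 at 24 h of IL-13 against control 24 h, and the members' median to 0.24. The members then stood 0.068 above all genes, against 0.058 with quantile normalization. In this setting 13 members were higher and 0 lower, in place of 2 and 0, while 17.1% of all genes were called higher. For control 24 h against 0 h the same scaling took the median of all genes to -0.18 and that of the members to -0.29. It called 0 members higher and 12 lower in place of 1 and 1, while 15.0% of all genes were called lower. The median signal per array averaged 59.3 after 24 h of IL-13, against 69.5 in control cells at 24 h and 59.1 at 0 h. On the deposited scale the members' median was 0.0080 at 24 h of IL-13 against control 24 h, with no member called.

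**Figure D5:**
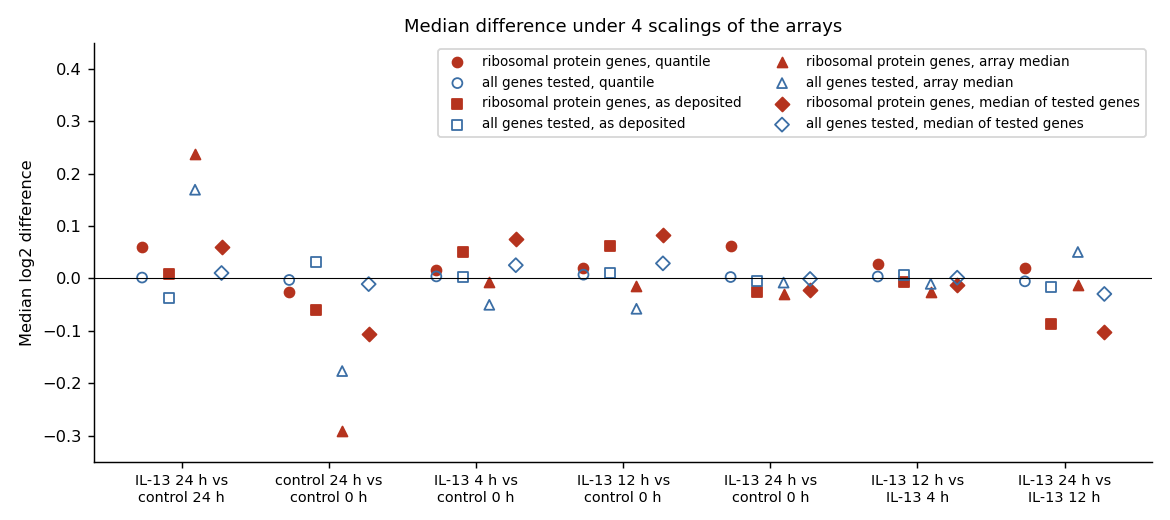
Median log2 difference of the ribosomal protein genes (filled red) and of all genes tested (open blue) in the 7 comparisons under 4 scalings of the arrays. Median scaling of the arrays takes the members to 0.24 for IL-13 24 h against control 24 h and to -0.29 for control 24 h against 0 h, and all genes to 0.17 and -0.18.

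Of the 58 members 23 have more than 1 probe set, and some of these sets disagreed. The 5 sets of RPL22 lay between 0.088 and 0.15 at 24 h of IL-13 against control 24 h. Of the 4 sets of RPS6, the 3 that passed the filter gave -0.025, 0.092 and 0.097. RPL18 is measured by a bright set with 0.079 and by dim ones with -0.35 and 0.40, and the bright and dim sets of RPL37A gave -0.013, 0.053 and -0.42. RPL31 rests on a dim set with -0.032, while its bright _x_at set had 0.20 (limma adjusted p = 0.0905) and another dim set 0.25. The RPL7 sets were 0.13 and -0.17. With every probe set tested on its own, 3 of the 86 that passed the filter were called at 24 h of IL-13 against control 24 h, while 6.50% of all probe sets tested were.

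The machinery around the ribosome was followed in lists of related genes. FAU, the source of the small subunit protein eS30, differed by -0.025 at 24 h of IL-13 against control 24 h (limma adjusted p = 0.883). Among mRNAs with a TOP start that encode no ribosomal protein, 1 of 11 tested was lower and none higher. Over all genes tested 3.07% were called lower. The lower one was EEF2, the elongation factor that moves the ribosome along, with -0.44 ± 0.12 (limma adjusted p = 0.0379), and this call was lost under the 3 other scalings. As deposited none of the 11 was called. With array median or tested-gene median scaling 1 of the 11 was higher and none lower. The shares of all genes called higher were then 17.1% and 6.38%. EEF1A1, which delivers aminoacyl-tRNA, and TPT1 had -0.027 and 0.094. The median of the list was -0.039. LARP1 had -0.39 ± 0.11 (limma adjusted p = 0.0388), also lost under the 3 other scalings, and was the 1 of 15 regulators called. The share of all genes called lower, given above, was 3.07%.

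The mitochondrial ribosomal proteins are encoded in the nucleus and form the separate ribosome of the mitochondrion. Of 48 tested, 6 were higher and none lower at 24 h of IL-13 against control 24 h, with a median of 0.15, while 3.94% of all genes were called higher. MRPL46 was higher by 0.60 ± 0.09 (limma adjusted p = 0.000864), and MRPL15, MRPL58 and MRPS11 by 0.39, 0.39 and 0.47. Of the 6 calls, that of MRPS31, with 0.48, was lost under 2 other scalings. In control cells at 24 h against 0 h, 4 were lower and none higher, with a median of -0.13, while 1.89% of all genes were called lower. These were MRPL58, MRPL15, MRPL18 and MRPL4, with -0.41, -0.33, -0.36 and -0.74. The summed signal of the 51 genes was 23600 to 24100 after 24 h of IL-13, against 20000 to 21100 in control cells at 24 h and 23400 to 23900 at 0 h. The control arrays at 24 h were thus the lower group in both comparisons, which share them. As deposited, 7 were higher with IL-13, and with tested-gene median scaling 10 and array median scaling 26, while 4.66%, 6.38% and 17.1% of all genes were. In control cells at 24 h 8, 9 and 23 were lower in the same order of scalings, while 2.95%, 4.01% and 15.0% of all genes were. The difference between mitochondrial and cytosolic ribosomal protein genes was not tested.

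MYC, a transcription factor that drives ribosome production, was lower after 12 h of IL-13 than at 0 h, by -0.42 ± 0.10 (limma adjusted p = 0.0245). It was higher at 24 h than at 12 h of IL-13, by 0.39 ± 0.10 (limma adjusted p = 0.029). DDIT4, an inhibitor of mTORC1, was lower after 4 h of IL-13, by -0.60 ± 0.13 (limma adjusted p = 0.0231). At 24 h it was higher than at 0 h both with IL-13, by 0.84, and in control cells, by 0.88, and the groups of 24 h differed by -0.039 (limma adjusted p = 0.888). In the same comparisons the members' median lay between -0.027 and 0.062.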

How the data were processed

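The authors deposited 1 linear signal intensity per probe set and array. Background correction and summarization are not given in the sources used here. After trimming 2% at each end every array has a mean of 150. A pseudocount of 20 was added, log2 taken and the arrays quantile normalized, since array medians differed by over 0.1 log2. Differences are on this scale, which understates changes of dim genes. Each gene was represented by its brightest single-symbol probe set, with _x_at sets used only where there was no other (8 members). The 6884 genes with a mean log2 signal over 6.33 were tested with limma 3.58.1 in R 4.3.3: group means over 15 arrays, empirical Bayes with a variance trend, two-sided tests, Benjamini-Hochberg adjustment and a threshold of 0.05. The steps were tested on simulated data. Left out were 57 probe sets with a ribosomal protein among several symbols, 13 of S6 kinases and 3 of pseudogenes. The 3 arrays per group limit the precision.

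The members and gene lists were chosen with earlier results of these data known. The genes named were, per comparison, every member past the threshold and otherwise the 5 with the smallest p, 24 names set by role, and up to 4 members of each related list. Other related lists were initiation factors, assembly factors and RNA polymerases I and III. Alternatives tried were 3 other scalings, pseudocounts of 1 and 62, no filter or the 75th percentile, other choices of probe set, no variance trend, a replicate block, only the compared groups, and leaving out each array. Whether the replicate letters pair the samples is not stated, and the main fit did not use them.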

Additional observations from a re-analysis of the deposited data

How the results depend on the processing

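With all 3 arrays per group, the calls of ribosomal protein genes were few and moved easily. For IL-13 24 h against control 24 h, 2 members passed, against 0 with the deposited scaling, without the filter or without the variance trend, 1 with the mean of probe sets and 13 with median scaling. Over all genes 482 passed, against 538, 348, 350, 409 and 1236 in the same order. Leaving out 1 array gave 2 to 4, the 4 without control 24 h replicate b, while 192 to 538 of all genes passed, the 538 without the same array. The median of 0.059 became 0.0080 with the deposited scaling and 0.24 with median scaling. For control 24 h against 0 h, 2 passed, against 0 without the filter or the variance trend, 1 with the deposited or tested-gene median scaling, a pseudocount of 1, the mean of probe sets or the replicate block, 12 with median scaling and 4 with the 75th percentile filter. Over all genes 249 passed, against 155, 173, 345, 385, 235, 251, 194, 1077 and 256 in the same order. Leaving out 1 array gave 0 to 3 members and 67 to 225 of all genes. The members' median of -0.027 became -0.29 with median scaling and -0.11 with tested-gene median scaling. For IL-13 4 h against 0 h the median of 0.017 turned to -0.0075 with median scaling, and with tested-gene median scaling it was 0.076. For IL-13 12 h against 0 h, 1 passed, against 2 with the 75th percentile filter, 0 with only the compared groups and 0 to 2 with 1 array left out, and tested-gene median scaling took the median of 0.021 to 0.082 and median scaling to -0.015. Over all genes 285 passed, against 284 with that filter, 275 with only the compared groups and 136 to 187 with 1 array left out. For IL-13 24 h against 0 h, 1 passed, against 0 with any of the 3 other scalings, without the filter or the variance trend, or with the mean of probe sets. It was 2 with the 75th percentile filter, only the compared groups or the replicate block, and 0 to 1 with 1 array left out. Over all genes 473 passed, against 487, 313 and 457 with the deposited, median and tested-gene median scaling. Without the filter or the variance trend, or with the mean of probe sets, 355, 380 and 448 passed. With the 75th percentile filter, only the compared groups or the replicate block, 442, 439 and 379 passed, and 210 to 354 with 1 array left out. The median of 0.062 became -0.026 with the deposited scaling, -0.029 with median scaling and -0.021 with tested-gene median scaling. For IL-13 12 h against 4 h the median of 0.027 became -0.025 with median scaling, -0.0072 with the deposited and -0.013 with tested-gene median scaling. For IL-13 24 h against 12 h, 0 passed, against 1 with the 75th percentile filter and 0 to 1 with 1 array left out, and the median of 0.020 became -0.014 with median scaling, -0.087 with the deposited and -0.10 with tested-gene median scaling. Over all genes 427 passed, against 408 with that filter and 194 to 373 with 1 array left out. The causes were not tested. Over all genes, the calls for IL-13 24 h against control 24 h ran from 192 to 1236. The number of genes tested was 6884 in the main setting and changes with the filter.

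Arrays with the same replicate letter did not deviate together: the correlation had a median of -0.002 over 30 pairs, against 0.002 over 60 pairs with different letters. The replicate block left 2, 0, 1, 0 and 0 members in the comparisons not named with it above, while 390, 60, 235, 0 and 360 of all genes passed. Over the 19 alternatives, RPS10 at 24 h of IL-13 against control 24 h ran from 0.12 to 0.35 and lost the call in 5, and RPL30 from 0.12 to 0.35 and lost it in 4. RPL27A lost its call in 8 of 19 at 24 h of control cells and in 5 of 19 at 12 h of IL-13, and RPS9 in 10 of 19. In control cells at 24 h against 0 h, RPS10 ran from -0.39 to -0.16 and lost its call in 13 of 19. None of these calls was lost with a change of sign.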

Other observations

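Genes that build the ribosome or start translation were followed in the same comparisons. Of 42 ribosome assembly factors tested, 3 were higher and none lower after 24 h than after 12 h of IL-13, while 4.14% of all genes were called higher. The median of the list was -0.066, beside -0.0056 over all genes. The 3 calls held under all 4 scalings. They were NOC3L with 0.38 and the nucleolar helicases DDX21 with 0.72 and DDX10 with 0.55. DDX10 was lower at both earlier times than at 0 h, by -0.58 after 4 h (limma adjusted p = 0.0168) and -0.70 after 12 h (limma adjusted p = 0.00155). EMG1, a methyltransferase of 18S rRNA, was higher by 0.35 at 24 h of IL-13 against control 24 h (limma adjusted p = 0.0152), and RRP1B was lower by -0.34 (limma adjusted p = 0.0342), a call lost under the 3 other scalings. In control cells at 24 h EMG1 was lower by -0.39 than at 0 h (limma adjusted p = 0.0145), and these comparisons share the control arrays of 24 h. The median of the assembly factors was 0.12 in the first of these comparisons and -0.20 in the second. Over all genes it was 0.0016 and -0.0030. FBL, the methyltransferase of the box C/D particles, was lower by -0.29 at 24 h of IL-13 against 0 h (limma adjusted p = 0.0176), a call lost under 2 of the other scalings.

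Subunits of the initiation factor eIF2, which brings the first tRNA, were among the 31 initiation factors tested. EIF2S3 was higher by 0.65 after 12 h of IL-13 against 0 h (limma adjusted p = 0.00321). EIF1, which helps select the start codon, was lower by -0.48 in that comparison (limma adjusted p = 0.00326), a call lost under 2 of the other scalings. After 24 h against 12 h of IL-13, 3 of the 31 were higher and none lower, while 4.14% of all genes were called higher. The 3 were EIF2S2 with 0.72, EIF5 with 0.34 and EIF1 with 0.31, and the EIF1 call was lost under the 3 other scalings. At 24 h of IL-13 against control 24 h, 1 of the 31 was lower and none higher, EIF4G1 with -0.45, lost under the 3 other scalings. Over all genes 3.07% were called lower. As deposited 1 of the 31 was higher, with array median scaling 4 and with tested-gene median scaling 2, and none was lower. The shares of all genes called higher were then 4.66%, 17.1% and 6.38%. Of 26 subunits and transcription factors of RNA polymerases I and III, 1 was lower and none higher, POLR1G with -0.44, a call lost under 2 of the other scalings. Array median scaling called 4 of the 26 higher and none lower, while 17.1% of all genes were called higher. With tested-gene median scaling 1 was higher and 1 lower, while 597 of 6884 genes were called, 439 of them higher. As deposited none was higher and 2 were lower, while 538 of 6883 genes were called, 321 of them higher. RRN3, which recruits RNA polymerase I to rRNA genes, was higher by 0.65 after 24 h than after 12 h of IL-13 (limma adjusted p = 0.0342).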
